A study of Homo sapiens with 6 samples.

Results

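The 10 genes described here make and use small silencing RNAs: AGO1, AGO2, AGO3, AGO4, DICER1, DROSHA, DGCR8, TNRC6A, TNRC6B and XPO5. They were taken by exact gene name from the deposited expression table, where each name matched 1 of the 58735 gene rows, and all 10 passed the filter on low values. Their products form the machinery that a short hairpin RNA shares with natural microRNAs, and both groups of the study carried a hairpin. RNA sequencing was done on Huh7, a long-established line of human hepatocellular carcinoma cells. A control hairpin (shcontrol, 3 libraries) was compared with a hairpin against TRIM15, which encodes a ubiquitin ligase of the tripartite motif family (shTRIM15, 3 libraries). There was no library without a hairpin, so the comparison is between 2 hairpin-bearing states. The hairpin sequences, how many were used, and whether the cells were a single clone or a mixed population are not given in the sources used here. Nothing says that the replicates were separate cultures, so p-values measure the spread between these libraries, which may be technical.

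MicroRNAs are cut from long nuclear transcripts by the nuclease Drosha with its RNA-binding partner DGCR8, and the resulting hairpins leave the nucleus with exportin-5, the product of XPO5. In the cytoplasm Dicer removes the hairpin's loop, and 1 strand is loaded into an Argonaute protein. Argonautes bind TNRC6 proteins, which bring the deadenylases and decapping enzymes that silence the target mRNA. Hairpins expressed from vectors enter the same path, mostly at the export step or, when built into a microRNA backbone, at Drosha.

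In the TRIM15 hairpin libraries TNRC6A, a scaffold of the silencing complex, fell to 82.0% of its control level. It was the 1 gene of the 10 that changed by the test, which 19.0% of all genes tested passed. Its paralog TNRC6B stood at 119% of control, and the genes of the earlier steps DROSHA and XPO5 both at 108%, but none of these 3 passed. AGO1, AGO2, AGO3 and DICER1 stood at 86.1 to 92.7% of control and did not pass either. DGCR8 and AGO4 had overlapping groups, at 104% and 103%. All differences were small: the median size over the 10 was 0.10 on the log2 scale, against 0.098 over all genes tested.

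Levels are FPKM, reads scaled to the length of the gene model and to library size, and differences are log2 fold changes of FPKM + 1, shTRIM15 minus shcontrol, which understate the change of genes near 1 FPKM. Of 14847 genes tested with limma, 2824 passed at an adjusted p under 0.05 (1326 higher, 1498 lower). The targeted gene, TRIM15 (ENSG00000204610), was listed at 5.17, 5.09 and 4.88 FPKM in the control libraries and at 3.23, 2.11 and 2.51 in the knockdown libraries, with no overlap. Its group mean went from 5.05 ± 0.147 to 2.62 ± 0.563 FPKM (SD, n = 3), a log2 fold change of -0.75 (SE 0.106, limma adjusted p = 0.00416). Depth, counted back from the FPKM values as whole reads, was 17332508 to 19556855 reads per library. All 8 liver cell and 4 epithelial markers were tested. The summed level of the liver markers was 1294 to 1320 FPKM in control and 1324 to 1348 in knockdown, and that of the epithelial markers 1214 to 1243 and 1101 to 1115. Endothelial markers were below 0.5 FPKM in all libraries for 5 of 5, with CDH5 listed at 0. Below that level were also 4 of 6 immune markers, with MS4A1 listed at 0, and 4 of 7 fibroblast and stellate markers, with COL1A1, COL1A2 and LUM above it. The fibroblast and stellate sum was 62.5 to 66.2 FPKM in control and 55.6 to 57.8 in knockdown, and the immune sum 16.2 to 17.7 and 16.4 to 17.9. The part of these marker differences in the results on the silencing genes was not tested. In bulk RNA, fewer cells with a transcript and less of it per cell cannot be told apart.

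By FPKM, the 10 genes fell into an abundant and a scarce set in control cells. In order of mean FPKM, TNRC6A (9.52) was followed by XPO5 (8.73), DGCR8 (8.32), DROSHA (7.29), AGO2 (6.31) and AGO1 (5.79). A gap of 2.38-fold then separated AGO1 from AGO4 (2.43), which lay close to DICER1 (2.35) and TNRC6B (2.28), with AGO3 (1.14) a further 2.003-fold below. Control ranges of neighbours overlapped for AGO4 and DICER1 and for DICER1 and TNRC6B, and were separate for the other neighbouring pairs. In the knockdown libraries XPO5 had the highest mean, at 9.47 FPKM, with TNRC6A at 7.81 beside DROSHA at 7.88, and TNRC6B (2.72) stood above DICER1 (2.15) with separate ranges. Among all tested genes the control means put TNRC6A at the 68.1th percentile, DICER1 at the 34.0th and AGO3 at the 18.9th. In reads, which are not divided by the length of the gene model, the order differed. AGO4 had 277 to 340 reads per control library, below AGO3 at 406 to 452. TNRC6B had 779 to 876, and DROSHA 992 to 1068.

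**Figure D1:**
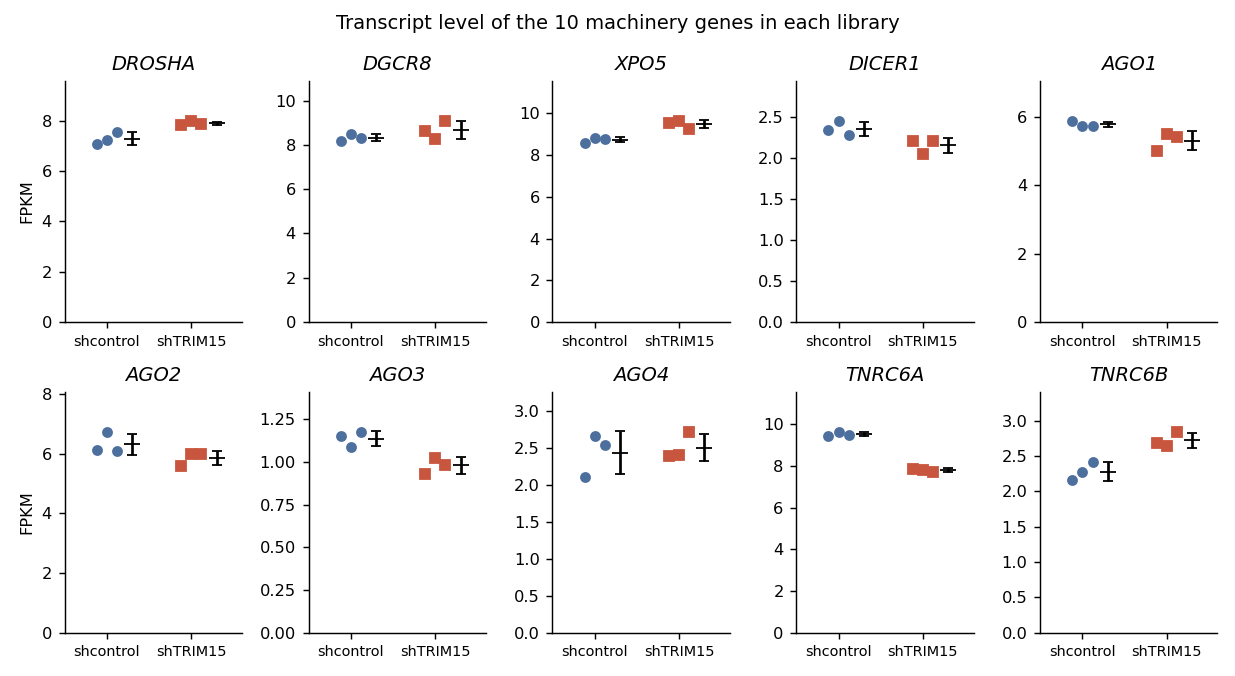
FPKM of each of the 10 genes (y axis, from 0, a separate scale per gene) in 3 shcontrol libraries (blue circles) and 3 shTRIM15 libraries (red squares); the black bar beside each set is the mean ± SD. TNRC6A drops from 9.52 to 7.81 FPKM with little spread, while DGCR8 and AGO4 overlap between the groups.

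Of the 10, limma called 1 lower, TNRC6A, where 10.1% of all tested genes were called lower. It called 0 higher, where 8.93% of all tested genes were, and 19.0% were called in either direction. At an unadjusted p under 0.05, 3 were higher (DROSHA, XPO5 and TNRC6B) and 2 lower (TNRC6A and AGO1). A count-based fit of the recovered whole reads, limma's voom, called 2 higher (TNRC6B and XPO5; background 12.9%) and 4 lower (TNRC6A, AGO1, AGO2 and AGO3; background 14.4%, and 27.3% for either direction). Groups of 3 did not overlap for 8 of the 10. Of these, 3 were higher in knockdown, against 18.8% of all tested genes, and 5 were lower, against 19.0%; the share in either direction was 37.8% over all tested genes. The signs divided evenly, 5 positive and 5 negative, with a median log2 fold change of -0.03, against 0.0014 over all genes tested.

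**Figure D2:**
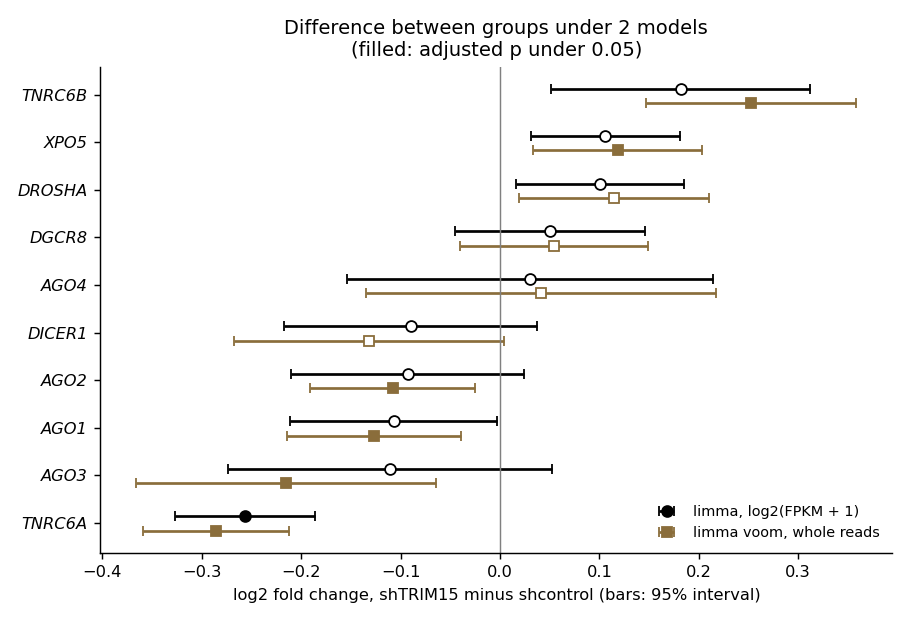
Log2 fold change, shTRIM15 minus shcontrol (x axis), for each of the 10 genes under limma on log2(FPKM + 1) (circles) and voom on whole reads (squares); bars are 95% intervals and filled symbols have an adjusted p under 0.05. TNRC6A is filled under both models, and TNRC6B, XPO5, AGO1, AGO2 and AGO3 under voom only.

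The nuclear steps come first in the pathway. DROSHA, the nuclease of the Microprocessor (ENSG00000113360, GRCh38 chromosome 5, 31400497 to 31532196, minus strand), had 7.07, 7.22 and 7.56 FPKM in control and 7.83, 7.97 and 7.85 in knockdown. Every knockdown library stood above every control library, from 992 to 1226 reads each. The group means were 7.29 ± 0.250 and 7.88 ± 0.0789 (SD, n = 3), and the log2 fold change of 0.10 (SE 0.0357, 95% interval 0.0162 to 0.185) had an adjusted p of 0.0979 by limma and 0.067 by voom. DGCR8, which recognises the primary microRNA and holds Drosha on it (ENSG00000128191, chromosome 22, 20080232 to 20111877, plus strand), had 8.17, 8.49 and 8.30 FPKM in control and 8.64, 8.26 and 9.07 in knockdown. The groups overlapped, through the knockdown library at 8.26. Its log2 fold change was 0.05 (interval -0.0454 to 0.146, adjusted p = 0.45), so a change larger than 0.146 lies outside the interval and smaller ones were not detectable with 3 libraries. The ratio of DROSHA to DGCR8, a pair of subunits of the same complex, was 0.876 ± 0.0313 in control and 0.913 ± 0.05005 in knockdown (exact permutation test, two-sided, p = 0.5; this and the other ratios were chosen after the values were seen).

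The DGCR8 transcript is itself a hairpin substrate of its own complex, since microRNA hairpins lie in its exons. They are shown because their cleavage ties the DGCR8 transcript to the activity of the complex that it encodes. MIR3618 lies in a 5′ UTR exon of 3 of 10 annotated DGCR8 transcripts, at chr22:20085797-20085818. MIR1306 lies in a coding exon of 4 of the 10, with its arms at chr22:20086072-20086093 and chr22:20086112-20086129. The mature sequences (RefSeq, GRCh38.p14, plus strand, 5′ to 3′) have bases 2 to 8, the seed that pairs with targets, in capitals, and no pair of them shares a seed.
hsa-miR-3618: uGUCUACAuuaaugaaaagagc
hsa-miR-1306-5p: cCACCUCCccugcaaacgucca
hsa-miR-1306-3p: aCGUUGGCucugguggug
The rows for both microRNA genes were listed at 0 in all 6 libraries. Libraries enriched for mRNA do not capture mature microRNAs: of 1879 microRNA rows, 1497 were listed at 0 in every library, 52 had a read in each, and the highest value was 73 reads. The values here are therefore those of the machinery's mRNAs, and no microRNA level was measured.

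XPO5, the export receptor for precursor hairpins (ENSG00000124571, chromosome 6, 43522330 to 43576075, minus strand), had 8.59, 8.84 and 8.77 FPKM in control and 9.56, 9.62 and 9.25 in knockdown. All 3 knockdown libraries were above all 3 control libraries. The means were 8.73 ± 0.124 and 9.47 ± 0.200 (SD, n = 3), with a log2 fold change of 0.11 (SE 0.0316, interval 0.0310 to 0.181). That difference missed the threshold by limma (adjusted p = 0.0597) and passed it by voom (0.0293). XPO5 overlaps POLR1C, a subunit gene of RNA polymerases I and III, on the opposite strand over 40090 bases. POLR1C rose from 4.31 ± 0.1698 to 4.98 ± 0.186 FPKM (log2 fold change 0.17, adjusted p = 0.0397). The library kit marks strand, but whether the counting used it is not stated; if it did not, reads of the overlapping exons cannot be told apart, and what POLR1C adds to XPO5 was not tested.

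DICER1 encodes the cytoplasmic nuclease that cuts precursor microRNAs and hairpin transcripts to size (ENSG00000100697, chromosome 14, 95086228 to 95158010, minus strand). Its values were 2.34, 2.45 and 2.28 FPKM in control and 2.21, 2.04 and 2.21 in knockdown, from 476 to 531 reads per library. The groups did not overlap, but the nearest libraries, 2.28 and 2.21, lay closer to each other than the libraries within either group were spread. The means were 2.35 ± 0.0864 and 2.15 ± 0.0953 (SD, n = 3), 91.4% of control, with a log2 fold change of -0.09 (SE 0.0538, interval -0.218 to 0.0375, adjusted p = 0.305 by limma and 0.152 by voom). Set against the nuclear enzyme, DROSHA was 3.10 ± 0.196 times DICER1 in control and 3.67 ± 0.204 times in knockdown, with 3 higher ratios in the 3 knockdown libraries (exact permutation test, two-sided, p = 0.1, the smallest that 3 against 3 allows). Both genes already had separate groups, in opposite directions, so the ratios had to separate. The p-value of the ratio therefore adds nothing to the 2 genes.

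DICER1 also holds a microRNA, MIR3173, which lies within the gene's span but in no exon of its 15 annotated transcripts, in contrast to the exonic hairpins of DGCR8. Its arms lie on the minus strand at chr14:95137923-95137944 (3p) and chr14:95137961-95137982 (5p). They are shown, with the seed in capitals (RefSeq, GRCh38.p14), because the host is the enzyme that would release them.
hsa-miR-3173-5p: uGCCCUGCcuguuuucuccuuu
hsa-miR-3173-3p: aAAGGAGGaaauaggcaggcca
Its row was listed at 0 in all 6 libraries.

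The Argonautes hold the guide strand. AGO1, AGO3 and AGO4 lie in a row on the plus strand of chromosome 1, with 11917 bases between AGO4 and AGO1 and 189 bases between AGO1 and AGO3, while AGO2 is on chromosome 8. AGO2, the Argonaute that cuts a fully matched target and so carries out hairpin knockdown (ENSG00000123908), had 6.11, 6.73 and 6.09 FPKM in control and 5.58, 5.98 and 5.99 in knockdown. No knockdown library reached the lowest control library, yet the closest values differed by less than the spread within a group. The means were 6.31 ± 0.361 and 5.85 ± 0.231 (SD, n = 3), 92.7% of control, with a log2 fold change of -0.09 (SE 0.0494, interval -0.210 to 0.0240). AGO2 did not pass by limma (adjusted p = 0.249) and passed by voom (0.0442, log2 fold change -0.11).

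AGO1 (ENSG00000092847, 35869808 to 35930528) had 5.88, 5.75 and 5.74 FPKM in control and 4.99, 5.51 and 5.42 in knockdown. The control libraries were tight and the knockdown libraries all lower, with replicate 1 the lowest. The log2 fold change was -0.11 (SE 0.0439, interval -0.211 to -0.00316, adjusted p = 0.142 by limma and 0.0234 by voom). AGO3 (ENSG00000126070, 35930718 to 36072500) was the lowest of the 10 by FPKM, with 1.15, 1.09 and 1.18 FPKM in control and 0.930, 1.03 and 0.986 in knockdown. Its groups were separate, and 86.1% of control was the lowest share among the Argonautes. Near 1 FPKM the added 1 shrinks the difference: the log2 fold change of AGO3 was -0.11 on the FPKM + 1 scale (SE 0.0687, adjusted p = 0.324) and -0.22 by voom, where it passed (0.0252). AGO4 (ENSG00000134698, 35808172 to 35857890), with 277 to 346 reads per library, had 2.11, 2.65 and 2.54 FPKM in control and 2.39, 2.40 and 2.71 in knockdown. The groups overlapped, and the log2 fold change was 0.03 (SE 0.0779, interval -0.154 to 0.215, adjusted p = 0.833). Its sign turned negative without control replicate 1 (-0.04) and without knockdown replicate 3 (-0.01).

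Summed over the 4 Argonautes, the control libraries had 15.2, 16.2 and 15.6 FPKM and the knockdown libraries 13.9, 14.9 and 15.1, or 93.4% of control. The sums were separate by a small margin (exact permutation p = 0.1). AGO2 supplied 40.3 ± 1.17% of the family's FPKM in control libraries (SD, n = 3) and 39.98 ± 0.286% in knockdown libraries, a difference of -0.275 percentage points (exact permutation p = 0.9). That share lay above AGO1's 37.0 ± 1.55% and 36.2 ± 0.601%, and AGO4 and AGO3 made up the rest, at 15.5 ± 1.45% and 7.27 ± 0.490% in control. AGO4 held 17.1 ± 0.950% and AGO3 6.70 ± 0.180% in knockdown (exact permutation p = 0.3 and 0.2). The difference in AGO2 share was within the spread of the control libraries, and its sign changed to 0.348 points without control replicate 2. The ratio of AGO2 to AGO1, 1.09 ± 0.0703 and 1.10 ± 0.0163, also overlapped between groups (exact permutation p = 0.9).

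**Figure D3:**
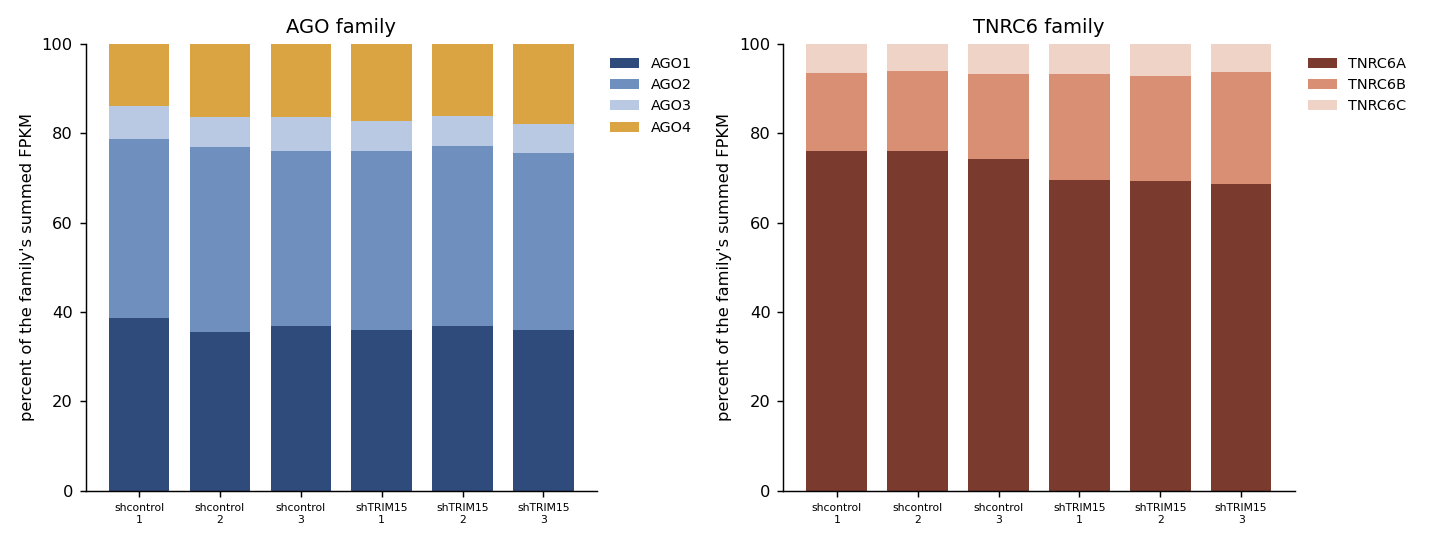
Percent of the summed FPKM of AGO1 to AGO4 (left) and of TNRC6A, TNRC6B and TNRC6C (right) held by each gene, as a stacked bar for each of the 6 libraries. The AGO bars look alike in both groups, with AGO2 near 40.3% and 39.98%, while TNRC6A holds 74.3 to 76.1% in control and 68.6 to 69.6% in knockdown.

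TNRC6 proteins, also called GW182 proteins, bind Argonaute and recruit the CCR4-NOT and PAN2-PAN3 deadenylase complexes. TNRC6A (ENSG00000090905, chromosome 16, 24610209 to 24827632, plus strand) had 9.43, 9.63 and 9.501 FPKM in control and 7.87, 7.82 and 7.72 in knockdown, from 1752 to 2229 reads per library. The distance between the groups was many times the spread within them. The means were 9.52 ± 0.103 and 7.81 ± 0.0758 (SD, n = 3). TNRC6A fell by 0.26 on the log2 scale (SE 0.0297, 95% interval -0.327 to -0.186, limma adjusted p = 0.00196), and by 0.29 with voom (4e-09). The call held under all 16 alternative settings run, with adjusted p-values up to 0.0175. Genes on the opposite strand within TNRC6A had group means at or below 0.192 FPKM.

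TNRC6B (ENSG00000100354, chromosome 22, 40044817 to 40335808, plus strand) had 2.15, 2.27 and 2.41 FPKM in control and 2.68, 2.63 and 2.84 in knockdown. Its groups were separate in the direction opposite to TNRC6A. The means were 2.28 ± 0.129 and 2.72 ± 0.108 (SD, n = 3), with a log2 fold change of 0.18 (SE 0.0550, interval 0.0514 to 0.312, limma adjusted p = 0.0619). The same gene passed in 4 of 16 alternative settings. These were voom (0.25, adjusted p = 0.00013), voom with a replicate block, a stricter filter of 1 FPKM in all libraries (0.0440) and no variance trend (0.0461). It did not pass when any 1 library was left out (limma adjusted p from 0.0744 to 0.171). TNRC6C, the remaining paralog (ENSG00000078687, chromosome 17, 77959240 to 78108835), was at 0.811 ± 0.0565 and 0.754 ± 0.0591 FPKM, with 136 to 179 reads per library (adjusted p = 0.737).

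Within the family, TNRC6A held 76.1, 76.1 and 74.3% of the summed FPKM in control and 69.6, 69.4 and 68.6% in knockdown. The means, 75.5 ± 1.01% and 69.2 ± 0.553%, differed by -6.29 percentage points, with all 3 knockdown libraries below all control libraries (exact permutation p = 0.1, the smallest possible). The share of TNRC6B went from 18.1 ± 0.755% to 24.1 ± 0.982% (exact permutation p = 0.1), and TNRC6C held 6.43 ± 0.425% and 6.68 ± 0.522% (p = 0.5, exact permutation test). Shares have a fixed total, so these tests are not independent of that of TNRC6A. TNRC6A and TNRC6B already had separate groups, in opposite directions, and TNRC6C held the smallest share. The shares of TNRC6A and TNRC6B therefore separated with the genes, and their p-values add nothing to the 2 genes. In FPKM, the mean of TNRC6A fell from 9.52 to 7.81 and that of TNRC6B rose from 2.28 to 2.72. The ratio of TNRC6A to TNRC6B was 4.38, 4.24 and 3.94 in control and 2.93, 2.97 and 2.72 in knockdown. The family sum was 12.6 ± 0.197 FPKM in control and 11.3 ± 0.0219 in knockdown, 89.4% of control.

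The promoters of TNRC6A and TNRC6B are shown because these paralogs lay at opposite ends of the 10 genes. Each run is the 250 bases before a RefSeq transcript start on the plus strand (GRCh38.p14), with the GC box GGGCGG and the CCAAT box, on either strand, in capitals. The TNRC6A window is chr16:24729401-24729650, inside the GENCODE gene span and upstream of a RefSeq start within it. The TNRC6B window is chr22:40044584-40044833.
TNRC6A: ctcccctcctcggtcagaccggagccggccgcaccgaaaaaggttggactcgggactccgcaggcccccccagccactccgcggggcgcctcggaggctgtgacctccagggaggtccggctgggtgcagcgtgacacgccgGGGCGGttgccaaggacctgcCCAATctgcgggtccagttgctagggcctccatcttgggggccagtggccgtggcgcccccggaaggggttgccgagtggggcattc
TNRC6B: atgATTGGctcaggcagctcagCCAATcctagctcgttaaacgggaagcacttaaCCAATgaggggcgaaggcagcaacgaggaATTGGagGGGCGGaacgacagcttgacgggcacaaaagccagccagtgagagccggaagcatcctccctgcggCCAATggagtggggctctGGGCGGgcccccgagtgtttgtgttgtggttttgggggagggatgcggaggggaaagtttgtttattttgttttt
The TNRC6A window was 71.6% G or C with 21 CpG, and held 1 GC box and 1 CCAAT box. The TNRC6B window was 56.4% G or C with 12 CpG, and held 2 GC boxes and 5 CCAAT boxes, against medians of 58.0% and 11 CpG over 35116 promoter windows.

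Of the 10 genes, all but AGO2 matched the RefSeq promoter table, with 13 windows for 9 genes, 5 of them for DICER1. Searched on both strands, GGGCGG was in a window of 8 of the 9 and in 42.6% of all windows, and CCAAT in 6 of the 9 and in 32% of all. TGACG, part of the cyclic AMP response element, was in 4 of the 9 (AGO3, DROSHA, TNRC6B and XPO5) and in 21.2% of all windows. CACGTG, the E-box, GTAAACA, the letters of a FOXO site, and TATAAA were in 0 of the 9, and in 6.34%, 2.98% and 10.7% of all windows. None of these motifs contains another, and a gene with several windows has more chances to match. The matches are a description of letters in these windows.

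The 10 transcripts differ in the part that microRNAs themselves bind. The longest annotated 3′ UTR (GENCODE 29) was 16755 bases for AGO3, 12567 for TNRC6B, 11888 for AGO2 and 10921 for AGO1, all at or above the 99.3th percentile of 11612 tested genes, whose median was 1333 bases. AGO4 and DICER1 had 4285 and 4270 bases, TNRC6A 2420, DGCR8 1767, XPO5 1538 and DROSHA 935. The Argonautes were otherwise alike in size, with 2571 to 2583 coding bases. The 4 genes with the longest 3′ UTRs went both ways, AGO1, AGO2 and AGO3 with negative differences and TNRC6B with a positive one. FPKM divides by the whole gene model, from 7267 bases for AGO4 to 21157 for AGO3 against a median of 4162, so the level of a gene that uses a shorter 3′ end is understated relative to the others.

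Beyond these 10 genes, 77 further genes of the pathway were read from lists by role, and 75 of them were tested. By limma 8 rose and 13 fell, 28.0% of those tested against 19.0% of all genes, with a median log2 fold change of -0.03. Voom called 8 higher and 22 lower, where it called 12.9% and 14.4% of all tested genes. The cofactors of Drosha and DGCR8 had 2 of 13 higher and 3 lower, or 38.5% called. KHSRP, which binds the terminal loop of some precursors, rose from 91.7 ± 2.30 to 99.5 ± 1.001 FPKM (adjusted p = 0.0145). DDX17, an RNA helicase of the Microprocessor, fell from 59.5 ± 0.364 to 54.3 ± 0.175 FPKM (0.0039). HNRNPA2B1, a reader of methylated RNA, fell from 169.6 ± 0.956 to 154 ± 2.60 (0.00358). On the opposite strand it overlaps CBX3 over 368 bases and NFE2L3 over 14069 bases, with log2 fold changes of -0.11 for both (adjusted p = 0.00903 and 0.0776), and what they add to it was not tested. HNRNPA1, which binds some primary microRNAs, fell by 0.15 on the log2 scale (0.00171), from a mean of 290 to 262 FPKM. An uncertainty is that the table has 75 rows for its pseudogenes, with a summed mean of 27.3 FPKM. What reads divided between HNRNPA1 and these rows add to the difference was not tested. KHSRP lost its call without control replicate 2, knockdown replicate 1 or knockdown replicate 3, and with no variance trend (adjusted p over all settings up to 0.0693).

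The genes of nuclear transport had 1 of 5 higher and 3 lower, where 8.93% and 10.1% of all tested genes were called. RAN, the GTPase that loads exportin-5, fell from 102 ± 1.89 to 93.8 ± 2.45 FPKM (adjusted p = 0.0231), and RANGAP1, which triggers its GTP hydrolysis in the cytoplasm, rose from 53.2 ± 1.62 to 57.3 ± 0.618 (0.0324). RAN has 9 pseudogene rows, with a summed mean of 2.87 FPKM. XPO1, the main export receptor for proteins, fell from 31.2 ± 1.57 to 27.5 ± 0.759 (0.0247). IPO8, an importin that binds Argonautes, fell from 7.77 ± 0.431 to 6.56 ± 0.197 FPKM (0.021). XPO5 itself thus had the positive sign of RANGAP1 and not the negative one of RAN, XPO1 and IPO8. The calls of these 4 were fragile: each was lost when knockdown replicate 1 was left out, RAN and RANGAP1 in 8 of 16 alternative settings each, IPO8 in 6 and XPO1 in 5, with adjusted p-values up to 0.0993. Leaving out control replicate 3 also ended the calls of RAN, RANGAP1 and IPO8, control replicate 2 those of RANGAP1, XPO1 and IPO8, and control replicate 1 that of RAN. Without knockdown replicate 2 those of RANGAP1 and XPO1 were lost, and without knockdown replicate 3 those of RAN, RANGAP1 and IPO8.

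Among partners of Dicer and factors of Argonaute loading, 0 of 15 were called higher (0 at an unadjusted p under 0.05 and 0 by voom) and 1 was called lower, or 6.67% against 19.0% of all tested genes. It was HSPA8, the constitutive HSP70 chaperone that helps open Argonaute for the small RNA duplex, from 436 ± 6.52 to 354 ± 6.58 FPKM (log2 fold change -0.30, adjusted p = 0.000304). The Dicer partners TARBP2 and PRKRA had log2 fold changes of 0.08 and -0.15 and did not pass by limma (adjusted p = 0.184 and 0.175). PRKRA passed by voom (log2 fold change -0.16, adjusted p = 0.0304). Voom called 4 of the 15 lower, where it called 14.4% of all tested genes lower. At an unadjusted p under 0.05 by limma 4 of the 15 were lower, against 2423 of all 14847 tested. HSPA8 has 17 rows of pseudogenes in the table, with a summed mean of 0.892 FPKM.

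The list of silencing effectors holds TNRC6C, reported above, and factors that act with or after the TNRC6 proteins. Of its 34 genes 33 were tested, with 4 higher and 5 lower, or 27.3% called against 19.0% of all tested genes. CNOT6, a catalytic deadenylase of CCR4-NOT, fell from 14.6 ± 0.664 to 10.1 ± 0.680 FPKM (log2 fold change -0.49, adjusted p = 0.00159), and CNOT1, the scaffold of that complex, from 27.4 ± 0.531 to 24.6 ± 0.673 (0.0133). DCP1A, an activator of decapping, fell from 6.61 ± 0.0730 to 5.85 ± 0.274 FPKM (0.0432). EDC3, an enhancer of decapping, rose from 11.03 ± 0.0859 to 14.4 ± 0.709 (0.35, 0.00161), LSM14B, a P-body protein, from 16.7 ± 0.337 to 20.4 ± 0.491 (0.27, 0.00159), and TNKS1BP1, a CCR4-NOT partner, from 8.58 ± 0.197 to 10.3 ± 0.105 (0.24, 0.00337). Outside the naming rule and chosen after their values were seen, GIGYF1 also rose, and CNOT11 and LIMD1 also fell. Both directions thus occurred within the deadenylation group and within the decapping group. EDC3 overlaps CLK3 on the opposite strand over 14857 bases, and CLK3 rose too, from 2.66 ± 0.111 to 3.17 ± 0.1025 FPKM (log2 fold change 0.19, adjusted p = 0.0375). CNOT1 overlaps SETD6 on the opposite strand over 1231 bases, and SETD6 rose while CNOT1 fell (0.22, adjusted p = 0.0173). What these overlaps add to EDC3 and CNOT1 was not tested. DCP1A lost its call in 8 of 16 settings (adjusted p up to 0.127), among them each of the 3 without a control replicate and those without knockdown replicate 1 or 2.

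Of the genes for microRNA tailing and decay, 9 of 10 were tested, with 1 higher and 1 lower, or 22.2% called against 19.0% of all tested genes. LIN28B, which blocks maturation of the let-7 microRNAs and is expressed in liver cancer, fell from 42.7 ± 1.22 to 34.3 ± 0.733 FPKM (log2 fold change -0.31, adjusted p = 0.001). DIS3L2, the exonuclease that degrades the tailed let-7 precursor, rose from 2.13 ± 0.0818 to 2.58 ± 0.0301 (0.19, 0.0374). The DIS3L2 call was lost in 8 of 16 settings, among them each that left out 1 of the 6 libraries (adjusted p up to 0.107). That of LIN28B held in all 16 settings.

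**Figure D4:**
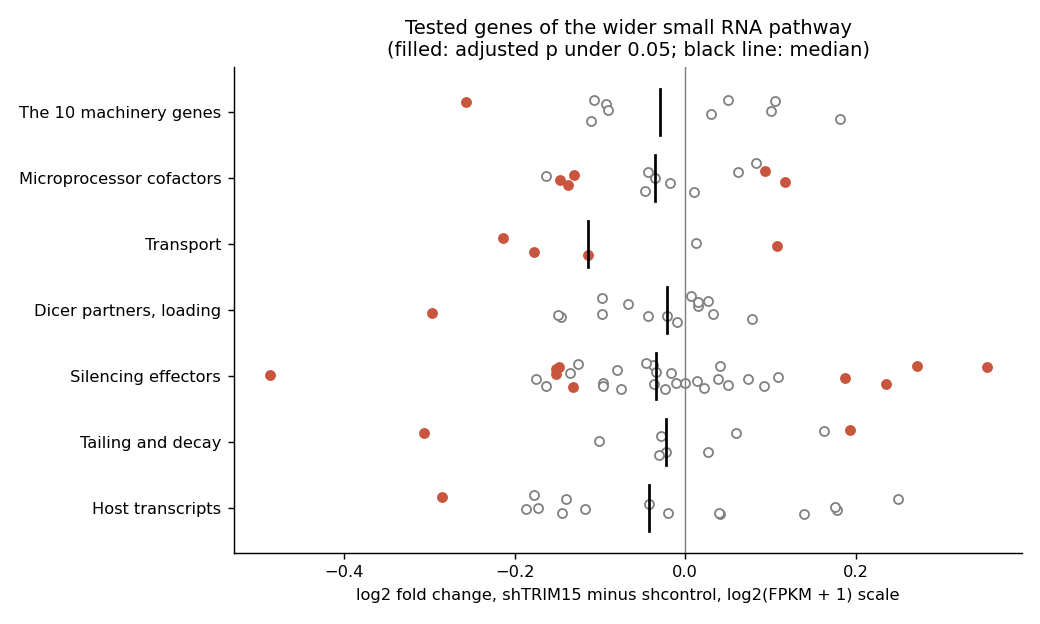
Log2 fold change, shTRIM15 minus shcontrol on the log2(FPKM + 1) scale (x axis), of every tested gene in the 10-gene set, in 5 lists by role and among the microRNA host transcripts; red filled points have an adjusted p under 0.05 by limma, open points do not, and black lines are medians. Vertical scatter within a line only separates points. Called genes lie on both sides of 0 in the cofactor, transport, effector and tailing lists.

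Substrates of the machinery were looked at through the 62 transcripts named as microRNA hosts, of which 15 were tested. Limma called 0 higher (0 at an unadjusted p under 0.05 and 0 by voom). It called 1 lower (3 at an unadjusted p under 0.05, and 2 by voom against a background of 14.4%). The share called by limma was 6.67%, against 19.0% of all tested genes. The 1 was MIR600HG, from 2.10 ± 0.0753 to 1.54 ± 0.11998 FPKM (log2 fold change -0.29, adjusted p = 0.0209). Its microRNA lies in an exon of both annotated transcripts, on the minus strand at chr9:123111561-123111583, and is shown with its seed in capitals (RefSeq, GRCh38.p14) as the product of the 1 host called by limma.
hsa-miR-600: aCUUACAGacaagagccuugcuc
The microRNA's own row was listed at 0 in all 6 libraries. MIR600HG shares 5978 bases on the same strand with STRBP, at a mean of 6.47 FPKM, so how the counting divided their reads bears on its value. The call was lost without control replicate 2 or 3 and without knockdown replicate 2 or 3 (adjusted p over all settings up to 0.0681). It was also lost with no filter and with the replicate block. Voom also called MIR22HG lower (log2 fold change -0.20, adjusted p = 0.0242), where limma did not (adjusted p = 0.0663).

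The tested genes whose profile over the 6 libraries was most like that of DICER1 were WSCD1 (Pearson's r = 0.982), ADARB1, an RNA-editing enzyme (0.98), and UBB, a ubiquitin gene (0.98). For AGO2 they were SOBP (0.989), NRP2, a semaphorin co-receptor (0.983), and AL136221.1 (0.979), the last with as few as 2 reads in a library. These are the highest of 14847 genes over 6 libraries that share depth and group, and they are given as a description. None of the 10 genes of the machinery was among them.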

How the data were processed

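RNA from 6 Huh7 libraries was enriched for mRNA and prepared with a directional kit, per the labels' protocols. The authors deposited FPKM values for 58735 genes; the aligner and counter are not given in the sources used here. The submitters' processing notes list a mouse build, but all 58735 identifiers and positions equal human GENCODE 29 (GRCh38), whose coordinates are used. Multiplied by gene length and divided by the worth of 1 read in that library, found from the values, 100% of the FPKM values came out whole (tolerance 0.01). These reads, 17332508 to 19556855 per library, went into voom. The library size implied by the worth of 1 read differed from the read total by -0.370 to -0.359% in control and 1.04 to 1.27% in knockdown.

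Genes at 0.5 FPKM or more in at least 3 of the 6 libraries (14847) were tested on log2(FPKM + 1) with limma 3.58.1 in R 4.3.3: variances moderated along a trend with mean level, two-sided, Benjamini-Hochberg adjustment over all genes tested, threshold 0.05. The script was tested on simulated data. Shares and ratios were compared by two-sided exact permutation tests of group means (scipy 1.17.1), which for 3 against 3 cannot go below 0.1. Alternatives were other pseudocounts (0.1 and 0.5), other filters, no trend, quantile and median-ratio scaling, voom, a replicate block, and leaving out each library. Voom with the block was added after the data were seen.

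Named genes were the 10 genes, TRIM15, TNRC6C, up to 3 called genes per direction and list with separate groups, up to 2 host transcripts per direction, and the 3 genes most like DICER1 and AGO2. The genes, lists and rule were chosen with earlier results of these data known. Not every gene taken by the rule is reported here.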

Additional observations from a re-analysis of the deposited data

How the results depend on the processing

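TNRC6A and TRIM15 kept their direction and call under all 16 alternatives. The count of all genes called, 2824, was 1771 to 2345 when 1 library was left out, 1888 with no filter and 1913 with the replicate block; voom called 4058. Same-numbered libraries did not deviate together (r = 0.0125, 0.00862 and 0.0133, each the highest for its libraries). The numbers were therefore not taken as pairs. With the replicate block the limma adjusted p of TNRC6A was 0.0175. The exact paired permutation p of its family share was 0.25, the smallest that 3 pairs allow. Of the 10 genes, 1 (TNRC6B) was called higher with the 1 FPKM filter and with no variance trend, and 2 with voom, with or without the replicate block, where 4 were called lower. Of the pathway genes, 5 rather than 8 were higher with no variance trend and 5 with the replicate block, and 4 to 7 without 1 library; 7 rather than 13 were lower with no filter, 22 with voom, with or without the block, and 8 to 11 without 1 library. Of the host transcripts, 0 rather than 1 were lower with no filter and with the replicate block, 2 with the 1 FPKM filter, no variance trend and voom, with or without the block, and 0 to 1 without 1 library. The difference of AGO4 ranged from -0.0397 to 0.0763 without 1 library, below 0 without shcontrol replicate 1 (-0.04) and without shTRIM15 replicate 3 (-0.01). The AGO2 share differed by 0.172 points in whole reads, not per length, and by -0.818 to 0.348 points without 1 library. With 3 libraries a group, permutation tests could not pass 0.05.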
